A study of Rattus norvegicus with 23 samples.

Results

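The genes described here are 8 that mark the alveolar type I cell: Ager, Aqp5, Pdpn, Hopx, Cav1, Rtkn2, Akap5 and Clic5. They were chosen with earlier results of these data known, and their probes were found by gene symbol. All 8 genes were among the 23029 genes tested. On the array they are held by 12 of 45598 probes and 22 of 58717 spots. All 12 probes passed the filter on dim probes, so that no member was lost.

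RNA was taken from the accessory lobe of the lung of male F344 rats, an inbred strain, aged 19 months. The exposed rats had breathed a nanostructured aerosol of titanium dioxide (TiO2) through the nose at 10 mg/m3 for 6 hours a day on 5 days a week over 4 weeks, and the control rats filtered air. Lungs were collected on the day exposure ended (D0) and 28 days later (D28). Each array held 1 rat: 6 control and 5 exposed rats on D0, 6 control and 6 exposed rats on D28. The p-values therefore measure the spread between rats of one strain, sex and age. For the exposed rats of D28 one label field read day 0 while their titles and descriptions read 28 days, and the titles were followed.

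Type I cells are the wide, thin epithelial cells that cover most of the gas exchange surface of the lung. The cuboidal type II cells secrete surfactant and can divide and flatten into new type I cells, passing through a keratin-rich transitional state when the epithelium is injured. Type I cells are known for their many caveolae, for water channels and for a very high level of the receptor Ager.

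A level is given below as log2 of the quantile-normalized processed signal of the array, and a log2 FC as exposed minus control on that scale. Levels of different genes are not set against each other, because probes differ in brightness. A gene was called over- or under-expressed at an adjusted p below 0.05 together with an FC of at least 1.5, which is 0.58 on the log2 scale. Genes past the adjusted p alone are counted separately. In whole lung tissue, fewer type I cells and less RNA per type I cell cannot be told apart. The share of spots well above background ran from 69.5% to 77.9% per array, and arrays of the same group correlated at 0.97 or more. The arrays sat on 5 slides, of which 4 held both exposed and control rats and 1 held only replicate 4 of the D28 controls. That array was also the only one read with another version of the scanner software. The members were readily measured in whole lobe RNA, with 11 of the 12 probes well above background on all 23 arrays. The exception was the second probe of Rtkn2, which reached that on 4 arrays.

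All 8 genes had a lower mean in the exposed rats on D0, and all 8 again on D28. Over all genes tested, 50.1% were lower on D0, 51.2% on D28 and 32.1% on both days. The median log2 FC of the 8 genes was -0.31 on D0, from -0.49 for Cav1 to -0.17 for Rtkn2, and -0.29 on D28, from -0.39 for Akap5 to -0.15 for Hopx. Over all genes the median was -0.00 on D0 and -0.01 on D28. None of the 8 was called on either day, where 1.79% of all genes were called on D0 and 0.756% on D28. On D0, 2 of the 8 (Cav1 and Aqp5) passed the adjusted p alone, against 2.86% of all genes in either direction and 1.35% of all genes in the lower direction. On D28 no member passed it, against 1.32% of all genes. At an unadjusted p below 0.05 the count was 4 of 8 on D0 and 3 of 8 on D28, against 11.9% and 11% of all genes.

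**Figure D1:**
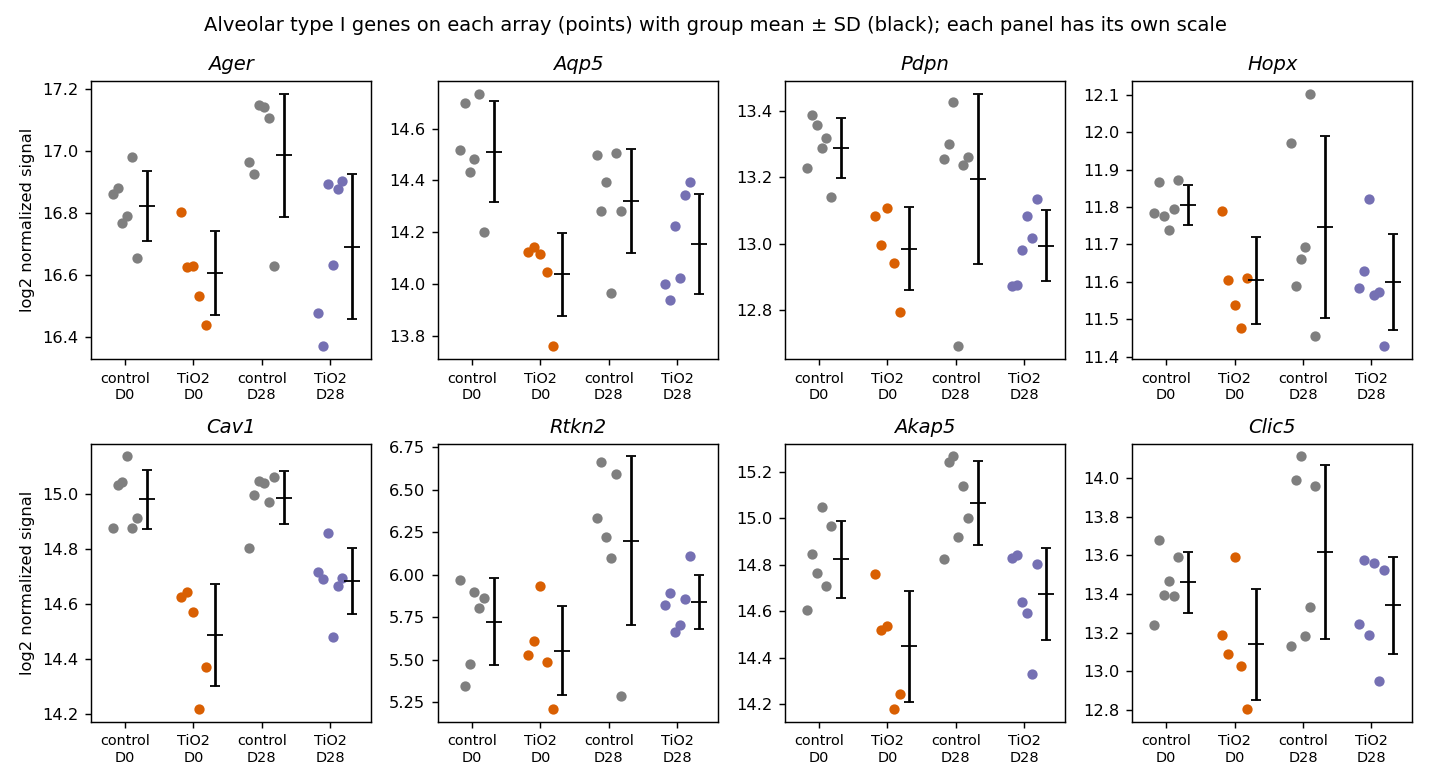
Log2 normalized signal of each alveolar type I gene on each array, with the group mean ± SD in black; grey points are control rats, orange points rats exposed to TiO2 on D0 and violet points rats exposed to TiO2 on D28. On D0 the exposed rats lie below all controls for Aqp5, Pdpn and Cav1, while on D28 the groups overlap for all 8 genes.

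Cav1 encodes caveolin-1, the coat protein of caveolae, the flask-shaped pits of the cell membrane. It is also abundant in the endothelium of the lung capillaries. On D0 its level in the 6 controls ran from 14.88 to 15.14 with a median of 14.97. In the 5 exposed rats of D0 it was 14.63, 14.65, 14.57, 14.22 and 14.37. Every exposed rat lay below every control, which held for 3 of the 8 genes (Cav1, Aqp5 and Pdpn) and for 2.37% of all genes. The log2 FC was -0.49 ± 0.09 (SE), an FC of 0.71 with a 95% confidence interval of the log2 FC from -0.68 to -0.31, and the adjusted p was 0.00262. On D28 the controls ran from 14.80 to 15.06 with a median of 15.02, and the exposed rats from 14.48 to 14.86 with a median of 14.69. Only the lowest control and the highest exposed rat of D28 overlapped. None of the 8 genes had all exposed rats of D28 below all controls, and 0.538% of all genes had. The log2 FC of D28 was -0.30 ± 0.08 with an adjusted p of 0.0825, which moved below 0.05 in 7 of 13 other settings of the processing. Cav1 was read by 1 probe printed at 10 spots, whose log2 signals had a median SD of 0.05 within an array.

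The upstream window of Cav1 is shown because Cav1 had the lowest adjusted p of the set. It holds the 250 bases before the first annotated start in RefSeq on GRCr8 (chr4:46606288-46606537, plus strand). Capitals mark GGGCGG or its reverse complement, the GC box bound by Sp1.

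Cav1 upstream window: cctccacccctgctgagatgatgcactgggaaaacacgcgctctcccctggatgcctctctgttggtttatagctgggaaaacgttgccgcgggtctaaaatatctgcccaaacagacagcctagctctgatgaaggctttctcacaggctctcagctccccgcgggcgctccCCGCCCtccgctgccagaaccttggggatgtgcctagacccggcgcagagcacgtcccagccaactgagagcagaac

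The GC box was found once in this window, 77 bases before the start. A second annotated start of Cav1 had a window without it.

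The partners of caveolin-1 gave lower means with it. On D0 all 7 genes of a list of caveola proteins were lower in the exposed rats, with a median log2 FC of -0.29 against -0.00 over all genes, and 6 of 7 on D28, with a median of -0.23. The gene called in that list on D0 was Cav3, the caveolin of muscle, at -0.60 ± 0.15 with an adjusted p of 0.0364. On D28 Cav3 stood at -0.43 ± 0.15 and was not called. Cav2, which forms hetero-oligomers with caveolin-1 and was named after its values were seen, passed the adjusted p on both days, at -0.53 ± 0.08 on D0 (adjusted p 0.000663) and -0.32 ± 0.08 on D28 (adjusted p 0.0425). The controls of Cav2 ran from 12.98 to 13.31 on D0 and from 13.10 to 13.21 on D28. Its exposed rats ran from 12.35 to 12.75 and from 12.68 to 13.02, below all controls on each day.

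Aqp5 encodes aquaporin-5, the water channel of the apical membrane of type I cells. Its level on D0 ran from 14.20 to 14.73 in the controls, with a median of 14.50. The exposed rats of D0 had 14.13, 14.14, 14.12, 14.05 and 13.76. All 5 lay below the lowest control, 4 of them close together and replicate 5 apart. The log2 FC was -0.47 ± 0.12, an FC of 0.72, with an interval from -0.72 to -0.23 and an adjusted p of 0.0318. The adjusted p did not hold at 0.05 in 6 of the 23 fits that left out 1 rat. It was 0.0583, 0.0771, 0.0569 and 0.0817 without replicates 1, 2, 4 and 5 of the D0 controls, and 0.0672 and 0.101 without replicates 4 and 5 of the exposed rats of D0, with the log2 FC at -0.40 in the last case. On D28 Aqp5 ran from 13.96 to 14.51 in the controls (median 14.34) and from 13.94 to 14.39 in the exposed rats (median 14.12). The groups of D28 overlapped over nearly their whole range, with a log2 FC of -0.17 ± 0.11 and an adjusted p of 0.67.

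The upstream window of Aqp5 is shown for its base composition. In the 250 bases before its start (GRCr8, chr7:132601278-132601527, plus strand, from RefSeq), G and C made up 83.2%, where the median over 33465 windows was 51.2% and 1.1% of them reached 80% or more. Capitals again mark the GC box.

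Aqp5 upstream window: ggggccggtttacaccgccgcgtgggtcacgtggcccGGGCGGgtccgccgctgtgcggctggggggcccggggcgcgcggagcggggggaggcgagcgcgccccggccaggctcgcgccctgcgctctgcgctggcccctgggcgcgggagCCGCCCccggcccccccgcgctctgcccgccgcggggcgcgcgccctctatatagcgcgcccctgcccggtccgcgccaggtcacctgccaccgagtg

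The GC box occurred in 2 places in this window, 213 and 98 bases before the start. Over the set, 6 of the 9 windows of the 8 genes held a GC box (those of Akap5, Aqp5, Clic5, Pdpn and Rtkn2 and 1 of Cav1), against 30.5% of all windows. The letters GGAATG, read by TEAD factors, were in none of the 9 windows of the 8 genes and in 12.1% of all windows. CAAGTG, read by NKX2-1, was likewise in none of the 9 windows and in 11.7% of all, and TGANTCA, read by AP-1, in none of the 9 and in 6.34% of all. Each motif was searched on both strands and none overlapped another, and a match or its absence says only which letters stand in these windows.

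Of 9 other aquaporins tested, 4 were lower and 5 higher on D0, and 2 lower and 7 higher on D28. Among those higher on both days, Aqp7 was well above background on 0 of 23 arrays, Aqp6 on 7 and Aqp11 on 8. Aqp3, a channel for water and glycerol of airway basal cells, was over-expressed on D0 at a log2 FC of 2.29 ± 0.50 (adjusted p 0.0126). Its level ran from 8.06 to 9.99 in the D0 controls and from 10.10 to 12.31 in the exposed rats. On D28 Aqp3 stood at 0.55 ± 0.48 and was not called.

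Pdpn encodes podoplanin, a mucin-type glycoprotein of the apical surface of type I cells that lymphatic endothelium and mesothelium also make. Its level on D0 ran from 13.14 to 13.39 in the controls (median 13.30). In the exposed rats of D0 it was 13.08, 13.00, 13.11, 12.94 and 12.79. These also lay below all controls, by a narrow gap. The log2 FC of -0.30 ± 0.10 had an unadjusted p of 0.00836 and an adjusted p of 0.152. On D28 the controls ran from 12.69 to 13.43 (median 13.26) and the exposed rats from 12.87 to 13.13 (median 13.00). The lowest control of D28 was replicate 4, the array on a slide of its own. With it the log2 FC of Pdpn on D28 was -0.20 ± 0.10 (adjusted p 0.474), and without it -0.30 (adjusted p 0.0518). Leaving that array out also took the adjusted p of Pdpn on D0 to 0.0282, through the spread shared by all groups.

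Pdpn was read by a bright probe and a dimmer one. The dimmer one, A_64_P157371, is shown because its 60 bases lie over 987 bases of the genome (rn4, chr5:162143371-162144357, minus strand). They thus join parts that the genome holds apart. Read from its first base, the probe has no stop codon before the one in capitals at its end. In 1 other frame it holds no stop codon.

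Pdpn probe: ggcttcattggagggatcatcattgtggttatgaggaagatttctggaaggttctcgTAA

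The bright probe gave -0.29 ± 0.09 on D0 and -0.11 ± 0.09 on D28. The spliced probe gave -0.31 ± 0.14 and -0.30 ± 0.14. Both probes were lower on both days, and the difference between days was not past the threshold for either (unadjusted p 0.149 and 0.939).

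Ager encodes the receptor for advanced glycation end products, a surface receptor that in lung sits mainly on the basal side of type I cells. On D0 its level ran from 16.66 to 16.98 in the controls (median 16.83). The exposed rats of D0 had 16.80, 16.63, 16.63, 16.53 and 16.44. The groups overlapped, since replicate 1 of the exposed rats lay inside the control range, and the log2 FC was -0.22 ± 0.11 with an adjusted p of 0.496. On D28 Ager ran from 16.63 to 17.15 in the controls (median 17.04) and from 16.37 to 16.90 in the exposed rats (median 16.76), a log2 FC of -0.29 ± 0.11 with an adjusted p of 0.245. The ligands of the receptor split, with 4 of 7 lower and 3 higher on each day and none called. The highest log2 FC among them on D0 was that of S100a9, an alarmin of neutrophils and a subunit of calprotectin, at 0.63 ± 0.38 (adjusted p 0.612). The lowest was that of S100b at -0.62 ± 0.23 (adjusted p 0.206).

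Akap5 encodes an anchoring protein that holds protein kinase A and calcineurin at the membrane. The controls of D0 ran from 14.60 to 15.05 (median 14.81). The exposed rats of D0 had 14.76, 14.52, 14.54, 14.18 and 14.25. On D28 the controls ran from 14.82 to 15.27 (median 15.07) and the exposed rats from 14.33 to 14.84 (median 14.72). Of the exposed rats of D0, replicate 1 lay inside the control range and the other 4 below it, and on D28 the ranges met at their edges. The log2 FC was -0.38 ± 0.12 on D0 (adjusted p 0.118) and -0.39 ± 0.12 on D28 (adjusted p 0.112), almost the same value on both days. Its probe, shown because Akap5 had the log2 FC farthest from 0 on D28, lies at chr6:98928387-98928446 on the plus strand of rn4.

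Akap5 probe: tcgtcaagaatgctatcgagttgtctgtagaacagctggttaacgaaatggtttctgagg

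Of 9 partners of Akap5 tested, 5 were lower on D0 and 6 on D28, and none was called. On D0, 1 of them passed the adjusted p alone, in the lower direction. The lowest log2 FC of the list on D0 was -0.48. The highest on D0 was Adcy5, an adenylyl cyclase, at 0.20 ± 0.18.

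Clic5 encodes a chloride intracellular channel protein that binds the cortical cytoskeleton through ezrin. Its level on D0 ran from 13.24 to 13.68 in the controls (median 13.43). The exposed rats of D0 had 13.19, 13.09, 13.59, 13.03 and 12.80. Replicate 3 of the exposed rats lay among the upper controls, the other 4 below all controls. The log2 FC was -0.32 ± 0.18 (adjusted p 0.571) on D0 and -0.28 ± 0.17 (adjusted p 0.63) on D28. On D28 the controls of Clic5 spread from 13.13 to 14.11, wider than the exposed rats, which ran from 12.95 to 13.57. The brighter of its 2 probes gave -0.29 ± 0.12 on D0 and -0.15 ± 0.11 on D28, and the dimmer -0.35 ± 0.28 and -0.40 ± 0.26. In a list of 10 CLIC proteins, ezrin-family proteins and their partners, 6 were lower on D0 and 5 on D28, and none was called on either day. Clic6 was called with both days averaged, at -0.63 ± 0.15 (adjusted p 0.00983).

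Hopx encodes a small homeodomain protein without DNA binding of its own, an early marker of type I fate. Its level on D0 ran from 11.74 to 11.87 in the controls (median 11.79), the narrowest control range of the set. The exposed rats of D0 had 11.79, 11.61, 11.54, 11.48 and 11.61. Replicate 1 of the exposed rats reached the control range and the other 4 lay below it, with a log2 FC of -0.20 ± 0.10 and an adjusted p of 0.456. On D28 the controls ran from 11.46 to 12.10 (median 11.68) and the exposed rats from 11.43 to 11.82 (median 11.58), a log2 FC of -0.15 ± 0.10 with an adjusted p of 0.653. The probes of Hopx disagreed. The bright one gave -0.35 ± 0.12 on D0 and -0.30 ± 0.11 on D28, and the dim one -0.06 ± 0.13 and 0.01 ± 0.12. Among 12 regulators of type I fate and targets of YAP and TAZ, 9 were lower on D0 and 8 on D28, with medians of -0.05 on both days and none called. Tead1, the partner of YAP on DNA, had the lowest value on D0 at -0.53 ± 0.18 (adjusted p 0.136), and Nkx2-1, the lung lineage factor, the highest at 0.10 ± 0.10.

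Rtkn2 encodes rhotekin-2 and is a marker of type I cells in rodents. Its level on D0 ran from 5.35 to 5.97 in the controls (median 5.83). The exposed rats of D0 had 5.53, 5.61, 5.94, 5.49 and 5.21. On D28 the controls ran from 5.29 to 6.66 (median 6.28) and the exposed rats from 5.67 to 6.11 (median 5.84). The groups overlapped on both days, and the log2 FC was -0.17 ± 0.19 on D0 and -0.36 ± 0.18 on D28 with adjusted p of 0.896 and 0.495. These means include the probe that was rarely above background. The other probe of Rtkn2 gave -0.31 ± 0.14 on D0 and -0.30 ± 0.13 on D28.

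**Figure D2:**
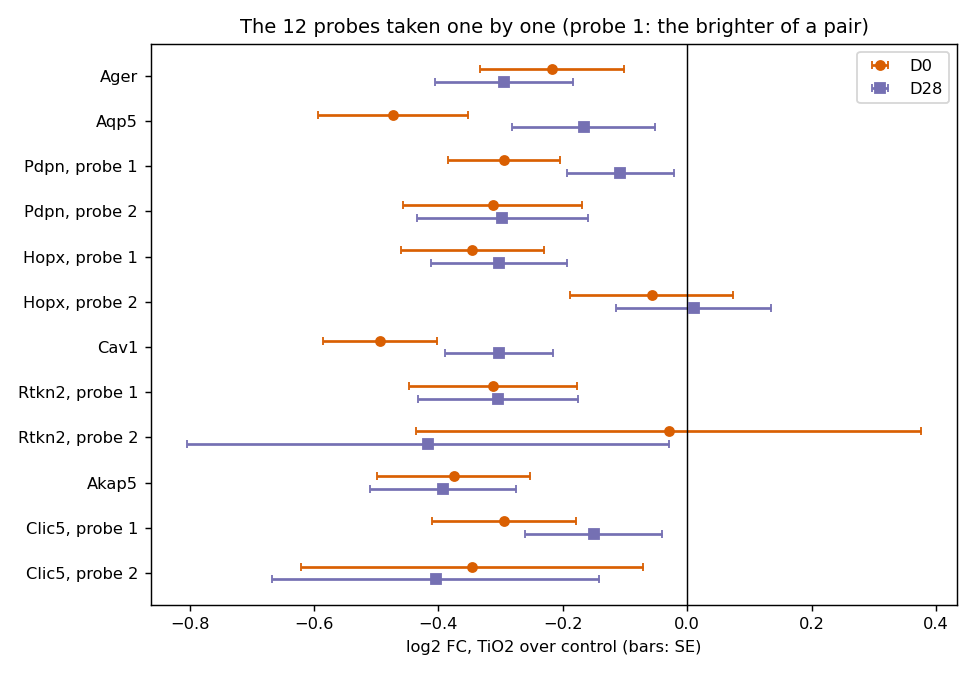
Log2 FC of exposed over control rats with its SE for each of the 12 probes, D0 in orange and D28 in violet; where a gene has 2 probes, probe 1 is the one of higher signal. All 12 probes are below 0 on D0 and 11 on D28, the exception being the dim probe of Hopx at 0.01, and the second probe of Rtkn2 has the widest errors.

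Tested probe by probe, all 12 probes were lower on D0 and 11 of 12 on D28. On D0 the probes of Cav1 and Aqp5 passed the adjusted p, which 1.82% of all probes did.

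To ask whether the effect had changed by D28, the difference of the log2 FC between the days was tested. No member was past the adjusted p, with 0.0304% of all genes called. The largest difference was that of Aqp5, whose log2 FC was 0.31 ± 0.16 nearer to 0 on D28, with a confidence interval from -0.03 to 0.65 and an unadjusted p of 0.0759. Cav1 came next at 0.19 ± 0.12, from -0.06 to 0.44. For Akap5 the difference was -0.02 ± 0.17, with an interval from -0.37 to 0.33. The intervals of all 8 genes held 0, so that no order of the days is given for any of them.

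With both days averaged, 4 of the 8 genes passed the adjusted p (3 to 7 under the other settings of the processing), against 6.56% of all genes in either direction and 3.51% in the lower direction. None was called with the FC limit, which 1.87% of all genes were. All 8 were lower and 7 of 8 had an unadjusted p below 0.05, against 50.5% and 17.2% of all genes. Cav1 stood at -0.40 ± 0.06 (adjusted p 0.000295), Akap5 at -0.38 ± 0.08 (adjusted p 0.0062), Aqp5 at -0.32 ± 0.08 (adjusted p 0.019) and Pdpn at -0.25 ± 0.07 (adjusted p 0.0356). As FC these are 0.759, 0.766, 0.801 and 0.839. Ager followed at -0.26 ± 0.08 (adjusted p 0.0547), Clic5 at -0.30 ± 0.13 (0.202 after adjustment), Hopx at -0.17 ± 0.07 (0.169) and Rtkn2 at -0.27 ± 0.13 (0.311). Taken singly, 4 of the 12 probes passed the adjusted p in the average, against 4.85% of all probes. These were the probes of Cav1, Akap5 and Aqp5 and the bright one of Hopx, at -0.32 ± 0.08 (adjusted p 0.0178). The dim probe of Hopx gave -0.02 ± 0.09, and neither probe of Pdpn passed (0.0724 and 0.0923). The averages of Cav1, Akap5 and Aqp5 stayed past the adjusted p in all 23 fits that left out 1 rat, that of Pdpn in 8 of them, with 0.076 as its highest adjusted p, without replicate 5 of the exposed rats of D0.

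**Figure D3:**
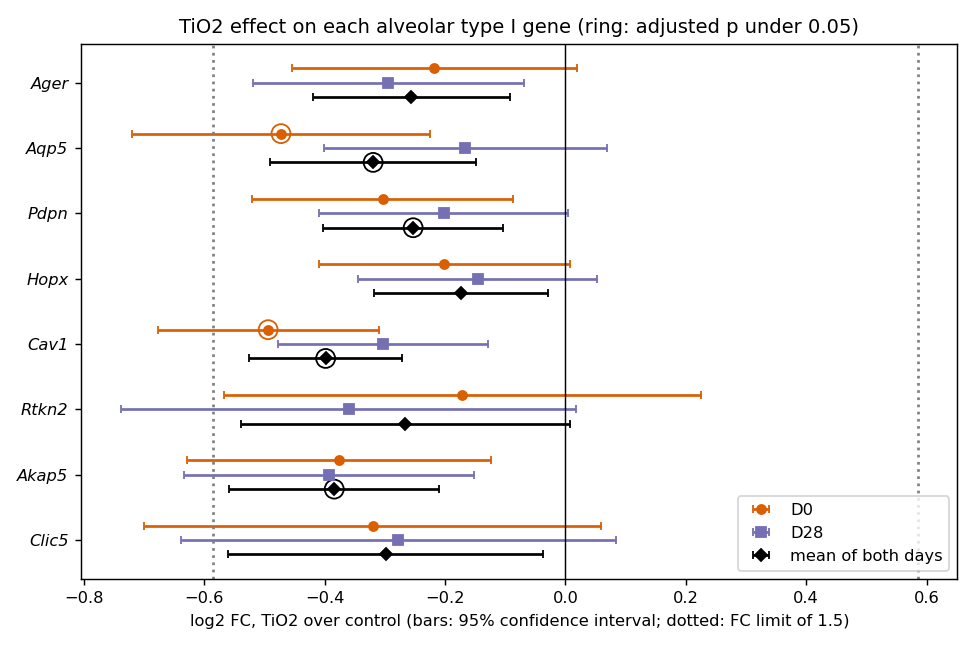
Log2 FC of exposed over control rats with its 95% confidence interval for each alveolar type I gene on D0 (orange), on D28 (violet) and averaged over both days (black); rings mark an adjusted p below 0.05 and dotted lines the FC limit of 1.5. All 24 estimates lie between 0 and the limit, from -0.49 to -0.15.

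Within the slides that held both groups of a day, the direction was mostly kept. On D0 the 4 slides gave 8, 7, 8 and 7 of 8 genes lower, with medians of -0.40, -0.20, -0.46 and -0.06, each from 1 or 2 rats a group. On D28 the 3 slides gave 8, 8 and 6 of 8 lower, with medians of -0.23, -0.35 and -0.30. Cav1 was lower on each slide, by -0.66 to -0.34 on D0 and by -0.43 to -0.13 on D28. With the slide as a fixed block 5 of the 8 genes (Aqp5, Pdpn, Cav1, Akap5 and Clic5) passed the adjusted p on D0 and 2 (Pdpn and Akap5) on D28. The share of all genes past the adjusted p in that fit is not reported here. More of all genes were called in it as well, 506 against 412 on D0 and 251 against 174 on D28. These counts of all genes include the FC limit, with which no member was called. They are thus not comparable with the counts of members past the adjusted p alone. That fit gives no weight to replicate 4 of the D28 controls, which is alone on its slide.

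Between the days, no member passed the adjusted p in either the control or the exposed rats. In the control rats 3 of the 8 genes were lower on D28 and 5 higher, where 51.1% of all genes were lower, 0.881% passed the adjusted p and 0.612% were called. Rtkn2 had the highest value at 0.48 ± 0.18 (adjusted p 0.253), which passed at 0.66 without replicate 6 of the D28 controls (adjusted p 0.0293). That value is a mean over both its probes, of which the one well above background on 4 of 23 arrays gave 0.85 ± 0.39 and the other 0.10 ± 0.13. Aqp5 had the lowest at -0.19 ± 0.11 (adjusted p 0.494). In the exposed rats 7 of 8 were higher on D28 than on D0 where 52.7% of all genes were lower, 0.417% passed the adjusted p and 0.352% were called. Cav1 had the lowest unadjusted p there, 0.036, at 0.20 ± 0.09.

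A longer list of 17 further type I genes pointed the same way. On D0, 14 of 17 were lower with a median log2 FC of -0.27, and 14 of 17 on D28 with a median of -0.21. Igfbp2, an IGF-binding protein of mature type I cells, was under-expressed on both days. Its level on D0 ran from 10.55 to 11.32 in the controls and from 9.57 to 10.22 in the exposed rats, a log2 FC of -0.92 ± 0.14 (adjusted p 0.000663). On D28 it ran from 10.85 to 11.56 and from 10.40 to 10.73, a log2 FC of -0.66 ± 0.13 (adjusted p 0.0141). Its groups did not overlap on either day. In all, 6 of the 17 passed the adjusted p on D0 and 2 on D28, all lower, and Igfbp2 was the only one called. This list shares Cav2 with the list of caveola proteins.

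Type II genes lay on the other side of 0. Of 12, 11 were higher on D0 with a median of 0.24 and 10 on D28 with a median of 0.19. Muc1, a mucin of the apical membrane of type II cells, was over-expressed on D0 at 0.64 ± 0.14 (adjusted p 0.0101) and on D28 at 0.61 ± 0.13 (adjusted p 0.0232). Of the transitional epithelium list, 7 of 12 genes were higher on each day, with medians of 0.13 and 0.09. Areg, a ligand of the EGF receptor, was called with both days averaged at 0.75 ± 0.19 (adjusted p 0.0196). The summed linear signal of the 12 type II genes was 611367 to 667345 in the exposed rats of D0 and 529877 to 586177 in their controls, without overlap. For the 8 type I genes it was 160768 to 206970 and 210160 to 238289, also without overlap and in the opposite direction. The brightest probes weigh most in such a sum, here that of Ager, whose own groups overlapped on D0. For the 17 further type I genes the sums of D0 overlapped, at 152075 to 202139 and 186722 to 202993. On D28 the sums overlapped for both lists, at 179248 to 222908 for exposed and 216855 to 272246 for control rats over the type I genes, and at 556422 to 638158 and 509397 to 589822 over the type II genes.

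**Figure D4:**
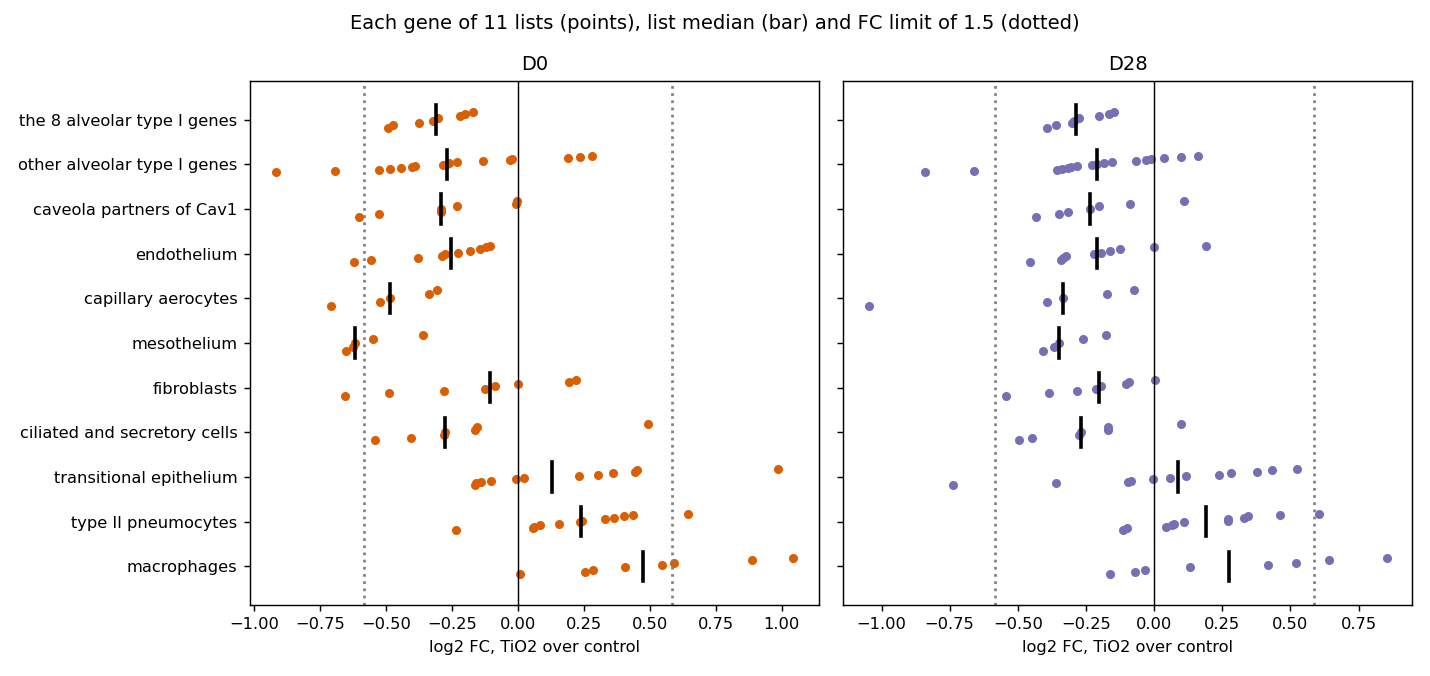
Log2 FC of exposed over control rats for each gene (points) of 11 lists on D0 (left) and D28 (right), with the list median as a bar and the FC limit of 1.5 as dotted lines. The medians of the type I, caveola, endothelial, aerocyte, mesothelial, fibroblast and ciliated and secretory lists lie below 0 on both days. Those of the transitional, type II and macrophage lists lie above 0.

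Other cell types of the lobe moved with the set, and their part in the result was not tested. Endothelial genes were lower in 10 of 10 on D0 and 9 of 10 on D28, with medians of -0.25 and -0.21. None of them was called. The 2 ends of that list on D0 were Emcn at -0.62 ± 0.25 and Kdr at -0.11 ± 0.13. The 5 markers of aerocytes, the capillary endothelial cells that face type I cells across the thin barrier, were all lower on both days (medians -0.48 and -0.33). Fibin among them was under-expressed on D0 at -0.71 ± 0.14 (adjusted p 0.00781) and on D28 at -1.05 ± 0.14 (adjusted p 0.000391). The 5 mesothelial genes, from cells that cover the lobe and also make podoplanin, were all lower on both days, with medians of -0.62 and -0.35. Wt1, Lrrn4 and Upk1b were called on D0 at -0.62 ± 0.17, -0.62 ± 0.12 and -0.65 ± 0.12, and none of the 5 on D28. The summed signal of the mesothelial genes was 8936 to 10987 in the exposed rats of D0 and 12062 to 15466 in their controls.

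Macrophage genes were higher in 8 of 8 on D0 and 5 of 8 on D28, with medians of 0.48 and 0.27. Siglec1, a sialic acid receptor of macrophages, was over-expressed on D0 at 0.89 ± 0.16 (adjusted p 0.00262). Of these 8, Marco was well above background on 2 of 23 arrays and Chi3l3 on 1. The summed signal of the macrophage genes was 14850 to 17767 in the exposed rats of D0 and 9886 to 12671 in their controls. On D28 it was 11497 to 14969 and 9011 to 12044. The neutrophil list had no common direction, with 4 of 7 lower on D0 (1 of the 7, Mpo, well above background on only 6 arrays) from Fpr1 at -0.80 ± 0.26 to S100a9, and none was called. Fibroblast genes were lower in 6 of 8 on D0 and 7 of 8 on D28, and Tcf21 was called on D0 at -0.66 ± 0.15 (adjusted p 0.0193). Of the lymphatic genes 4 of 5 were lower on each day, from Lyve1 at -0.58 ± 0.14 to Prox1 at 0.11 ± 0.20 on D0. Of 7 genes of ciliated and secretory airway cells 6 were lower on each day, from Cyp2f4 at -0.54 ± 0.16 to Scgb3a2 at 0.49 ± 0.15 on D0, and none was called on either day. The 5 genes of the cardiac muscle around pulmonary veins were lower on both days, and Myl7, an atrial myosin light chain, was called on both at -0.60 ± 0.13 and -0.63 ± 0.12. Nppa of that list was not well above background on any array.

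**Figure D5:**
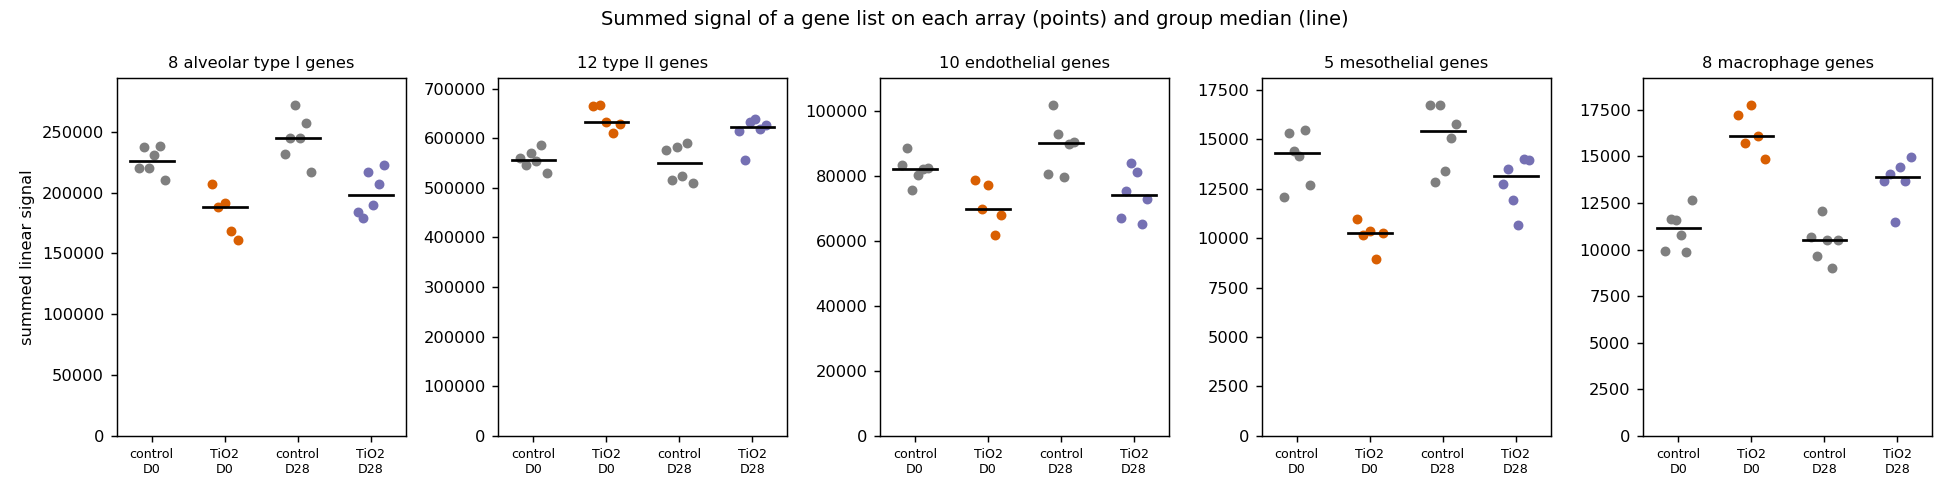
Summed linear normalized signal of 5 gene lists on each array (points) with the group median as a line. On D0 the exposed rats lie below all controls for the type I and mesothelial genes and above all controls for the type II and macrophage genes, while on D28 each of the 5 panels has overlapping groups.

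Among themselves the 8 genes varied together only in part. After the group means were subtracted, 21 of 28 pairs had a positive correlation over the 23 arrays, with a median r of 0.20 and a range from -0.47 (Hopx and Clic5) to 0.72 (Aqp5 and Pdpn). These values are a description, since all genes of an array share its RNA, hybridization and normalization. With each gene scaled to the same spread, the mean of the 8 genes followed that of the 17 further type I genes at r = 0.91 and that of the 12 type II genes at r = 0.80 within groups. With the other lists r ran from 0.72 for the endothelium to -0.06 for the aquaporins. A high r was thus not particular to the type I and type II lists. The slide was not taken out of these values. After centring by group, arrays with more of the 8 genes tended to have more of the type II genes. Between exposed and control rats the medians of the type I and type II lists lay on opposite sides of 0. The genes most like a member over the 23 arrays were Galnt18 (r = 0.89), Cpq (0.85) and Olr736 (0.77) for Cav1. For Aqp5 they were Lamb3 (0.88), Mxra8 (0.86) and Cyp2b2 (0.86), and for Pdpn Atp9a (0.92), Csrp1 (0.91) and Ddx47 (0.91). For Ager they were Uap1 (0.89), Bmp8b (0.88) and Fam57a (0.87), and for Akap5 LOC102552902 (0.88), Ptpn21 (0.87) and Ap2m1 (0.85). For Clic5 they were Map3k20 (0.95), Zfp407 (0.95) and Utrn (0.95), for Hopx Armc1 (0.81), Rasl12 (0.80) and Pnrc1 (0.80), and for Rtkn2 Zscan20 (0.85), Lats1 (0.85) and Dcaf10 (0.84). Members were left out of this search. The highest r within the 8 genes was 0.72, below the lowest of these values, 0.77.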

How the data were processed

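Total RNA of 23 accessory lobes was labelled with Cy3 by the authors and hybridized to 1-colour Agilent rat arrays of 60-base probes. The deposited intensity values are those of Agilent Feature Extraction (version 11.0.1.1 on 22 arrays, 12.0.1.1 on 1): per the file headers, the processed signal is corrected for background but not normalized between arrays. The authors also deposited an intensity table of all arrays, quantile normalized, which was used as an alternative.

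Control and outlier spots were left out. A probe was kept if its signal before normalization exceeded, on 5 or more arrays, the 95th percentile of the 308 negative controls there. This kept 40417 of 45598 probes, whose log2 processed signals were then quantile normalized. Probes without a value on every array were not tested, which left 40357. Spots were averaged per probe and probes per gene, under the symbols of the file of 1 array matched by probe. Group means were fitted with limma 3.58.1 in R 4.3.3 over all 23 arrays (19 residual degrees of freedom, Benjamini-Hochberg over 23029 genes). The fit was tested on simulated data. The number of arrays limits the precision.

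The 8 genes, the other gene lists and the tests were chosen with earlier results of these data known, so none of the counts over a list is independent evidence, and lists are described by counts and medians without a test. Named from a list were genes past both thresholds in an exposure comparison, otherwise those with the highest and the lowest log2 FC on D0; Cav2 was added after its values were seen. Values of some listed genes are not reported here. Some genes stand in 2 lists (Cav2, S100a8, S100a9). Of the listed genes, Cyp2b1 has no probe under that name in the files used, and Elane and Myh6 did not pass the filter. Probe sequences and rn4 positions are those of the scanner files. Upstream windows are RefSeq's on GRCr8. Alternatives were other scalings and background corrections, filters, probe rules, slide or replicate blocks and leaving out each rat. Of the exposed rats of D0, 5 were analysed here.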

Additional observations from a re-analysis of the deposited data

Results flagged for a closer look

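Each of the 32 combinations of a member and a group was searched for an array far from the others of its group, by the gap to its nearest neighbour over the range of the group. Chance marks about 1 in 20 groups, and 3 were found. Aqp5 in exposed D0 rats had replicate 5 at 13.76, below the next at 14.05. Cav1 in control D28 rats had replicate 1 at 14.80, below the next at 14.97. Pdpn in control D28 rats had replicate 4 at 12.69, below the next at 13.24. That last array was alone on its slide and was read with another version of the scanner software, and its 75th percentile of processed signal was the highest, at 3470, where the other 22 arrays ran up to 2835. The part of these in its Pdpn value was not tested.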

How the results depend on the processing

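No member was called under any of the 13 other settings on D0 or D28. With the FC limit dropped, 2 members on D0, 0 on D28 and 4 in the average over both days passed the adjusted p. Over the other settings this count ran from 1 to 5 on D0 (5 with slide as a fixed block, 4 as a random block), from 0 to 2 on D28 (2 with either slide block) and from 3 to 7 in the average. In the average it was 7 with the brightest probe of each gene, 6 with normexp, the deposited table, the filter on spots well above background and either slide block, and 3 with the replicate block. On leaving out 1 rat it ran from 1 to 3, 0 to 1 and 3 to 5. All 8 were lower on D0 and in that average under every setting. With slide as a block more of all genes were called, which includes the FC limit. On D0 these were 506 (fixed) and 541 (random) against 412, and on D28 251 and 263 against 174. Without control D28 replicate 6, 1 member (Rtkn2) was called from control D0 to control D28, against 0 otherwise. With all rats, that value of Rtkn2 was 0.48 over both probes and 0.10 with the brighter probe alone. The same comparison of Pdpn ran from -0.14 to 0.0091 on leaving out 1 rat, the last without control D28 replicate 4, and that of Clic5 was -0.079 with its brighter probe alone. Hopx on D28 was 0.011 with its dim probe alone. The cause was not tested. Cav1 kept an adjusted p below 0.05 on D0 in all 13 settings and 23 fits without 1 rat. Aqp5 kept it in 11 of 13, not with the replicate block (0.0639) or only the arrays compared (0.0535). The replicate numbers did not pair the rats on D0, with correlations from -0.22 to -0.12. On D28 the correlations ran from -0.17 to 0.46. Control replicates 2, 4 and 5 of D28 had the exposed rat of the same number as their best match. Whether the numbers pair the rats of D28 was not tested. With the replicate block 0 members were called, 1 (Cav1) passed the adjusted p on D0, 0 on D28 and 3 in the average. Using only the arrays compared could not be fitted for the average or the difference. Counts of called genes on D0 were 412, and 221 with normexp; on D28 174, and 94 with normexp, 42 with only the arrays compared and 263 with slide as a random block; in the average 430, and 144 with normexp and 190 with the deposited table.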
